A study of Mus musculus with 6 samples.

Results

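The genes described here are 40 genes of fatty acid oxidation in mitochondria and peroxisomes, out of 22848 genes tested on the arrays. They were chosen by name as members of the pathway, with earlier results of these data known. Each was represented by the brightest of its probes. By compartment and role they comprise 17 mitochondrial genes, 10 peroxisomal genes, 6 acyl-CoA thioesterases and 7 further genes that act in more than 1 compartment or beside the pathway. Each was marked above background by the scanner software on all 6 arrays, in the Fra-1hep and in the wild-type channel.

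Fra-1hep mice are C57BL/6J mice whose hepatocytes overexpress Fra-1, the product of Fosl1 and a subunit of the transcription factor AP-1. Which promoter drives the transgene is not given in the labels. Liver RNA was taken from untreated animals aged 26 to 28 weeks. On 5 two-colour arrays the Cy5-labelled RNA of 1 Fra-1hep mouse was set against Cy3-labelled RNA pooled from 5 wild-type C57BL/6J mice of the same age, which were fed chow. The sixth array had the dyes exchanged, with pooled Fra-1hep RNA labelled with Cy3 and the same wild-type pool labelled with Cy5. Values are log2 ratios of Fra-1hep over wild type, so a negative value means a lower level in Fra-1hep liver. The series text speaks of 6 single mutant mice, while the sample labels give 5 mice and the array of pools, and the labels were followed.

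Before any fatty acid is oxidised it is bound to coenzyme A. Mitochondria import long-chain acyl groups through the carnitine shuttle and shorten them in cycles of 4 reactions, and the liver turns much of the product into ketone bodies. Peroxisomes shorten very long-chain and branched acyl groups, pass the products on as carnitine esters or free acids, and depend on import and division factors of the organelle. Thioesterases split acyl-CoA back to the free acid and coenzyme A. Many of these genes are known targets of PPARα, a nuclear receptor for fatty acids that pairs with RXR.

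Some facts of the arrays bear on all values. The arrays of mice 2 and 3 differed by 1.08 times the noise of replicate spots, against 1.95 to 2.56 times for the other pairs of mice, so they were averaged and are treated as a single sample, which leaves n = 4. Between the dye-swapped array and single mice the spread was 2.70 to 3.86 times that noise, and the estimate gives this array the weight of all mice together without an error of its own. Since the wild-type pool is 1 RNA sample, the p-values leave out the spread between wild-type mice. Signal ranges given below for the wild-type channels are likewise repeated readings of this pool. The share of all genes tested whose signal ranges do not overlap was not computed. Of all probes, 48.5 to 58.9% per array gave a Fra-1hep signal above background and 45.0 to 50.7% a wild-type one. The labels could not be checked by Fosl1, whose only probe was dim on every array (0 of 6 above background).

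The 40 members were lower or not past the test in Fra-1hep liver, and the 8 that were at least 1.5-fold lower lay outside the mitochondrial class. This holds for the chosen members only. Of 63 further genes listed for the pathway and related routes 3 rose (4.76%), a share near the 5.95% of all genes tested. The pantetheinase Vnn1, the thioesterases Acot1, Acot3 and Acot4, the fatty aldehyde dehydrogenase Aldh3a2, the peroxisomal thiolase Acaa1b, the peroxisome division factor Pex11a and the carnitine octanoyltransferase Crot were 1.62 to 2.82-fold lower. Of the 40 members, 13 fell, 0 rose and 27 did not pass the test (limma, adjusted p under 0.05 over all genes tested). Among all genes tested, 6.48% fell and 5.95% rose. Among the 13955 of them with a gene symbol, which every member has, 8.12% fell and 7.70% rose. A fall of at least 1.5-fold that passed the test was reached by those 8 members and by 1.88% of all genes tested. The median log2 ratio was -0.17 over the members and 0.01 over all genes tested, and 18 members were lower on all 6 arrays, against 12.7% of all genes tested. Of the 13955 genes with a symbol, 348 passed the test with a fall of at least 1.5-fold and 2190 were lower on all 6 arrays. With the authors' processed signals in place of the background correction and normalisation used here, 5 members instead of 13 passed the test (3.39% of all genes tested fell), and the calls of Acot1, Acot3, Acot4, Acaa1b, Ehhadh, Pex19, Slc25a20 and Acadl were lost. With median centring in place of loess, 9 members fell and 1 rose, while of all genes tested 3.61% fell and 2446 of 22848 rose. With the mouse arrays alone, 23 members were lower and 1 was higher, and 11.5% of all genes tested were lower. In whole liver, fewer cells of a type and less RNA per cell cannot be told apart.

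**Figure D1:**
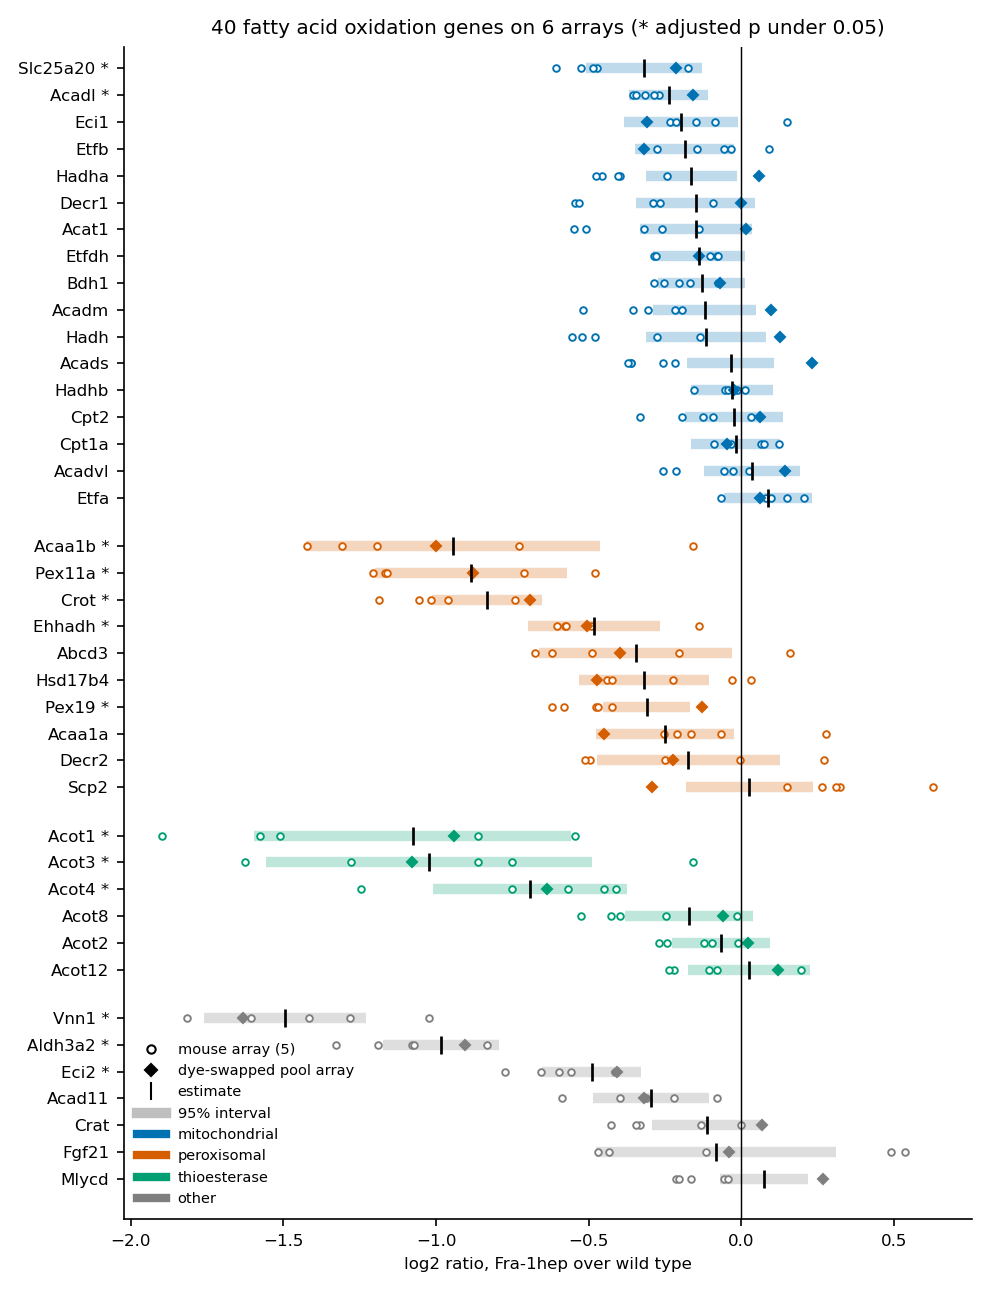
Log2 ratio of Fra-1hep over wild type (x axis) for the 40 members, grouped by class and ordered by estimate (y axis). Open circles are the 5 mouse arrays, diamonds the dye-swapped array of pools, ticks the estimate and bars its 95% interval, and stars mark an adjusted p under 0.05. The largest estimates are Vnn1 at -1.50, Acot1 at -1.08 and Acot3 at -1.02, while the mitochondrial estimates lie between -0.32 and 0.09.

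The classes were compared as groups of genes. Of the 17 mitochondrial members 2 fell (11.8%), of the 10 peroxisomal members 5 fell, of the 6 thioesterases 3 fell and of the 7 others 3 fell. Outside the mitochondrial class, 11 of 23 members fell, and among all genes tested 6.48% fell. With the mouse arrays alone, 9 of 17 mitochondrial, 5 of 10 peroxisomal and 4 of 6 thioesterase members were lower, against 11.5% of all genes tested. The median log2 ratio was -0.13 for mitochondrial members with loess normalisation and 0.03 with median centring in its place, so its direction rests on that choice. Peroxisomal members had a median of -0.33, thioesterases of -0.43 and the others of -0.30, and with median centring these were -0.18, -0.32 and -0.13. Members of a class are not replicates, and no test of a difference between classes was made.

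On single arrays the order of the classes was not fixed. The peroxisomal median lay at -0.06, -0.56, -0.59, -0.46 and -0.24 in mice 1 to 5 and at -0.46 on the dye-swapped array. For mitochondrial members the medians were -0.08, -0.29, -0.28, -0.22 and -0.20 in the mice, while the dye-swapped array had a median of -0.0023. The thioesterase median was -0.76, -0.44, -0.47, -0.47 and -0.25 in the mice and -0.35 on the dye-swapped array. Thioesterases thus lay below mitochondrial members on 6 of 6 arrays and peroxisomal members did so on 5 of 6, mouse 1 being the exception. In mouse 5 the 3 medians lay within 0.04 of each other. Grouped by slide, the batch tested here, mice 1 and 2 on slide 1 had medians of -0.18, -0.40 and -0.53 for mitochondrial, peroxisomal and thioesterase members. The medians were -0.21, -0.53 and -0.52 for mice 3 and 4 on slide 2, and -0.20, -0.24 and -0.25 for mouse 5 alone on slide 3. Since mice 2 and 3 were treated as a single sample, the medians of slides 1 and 2 are not independent.

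**Figure D2:**
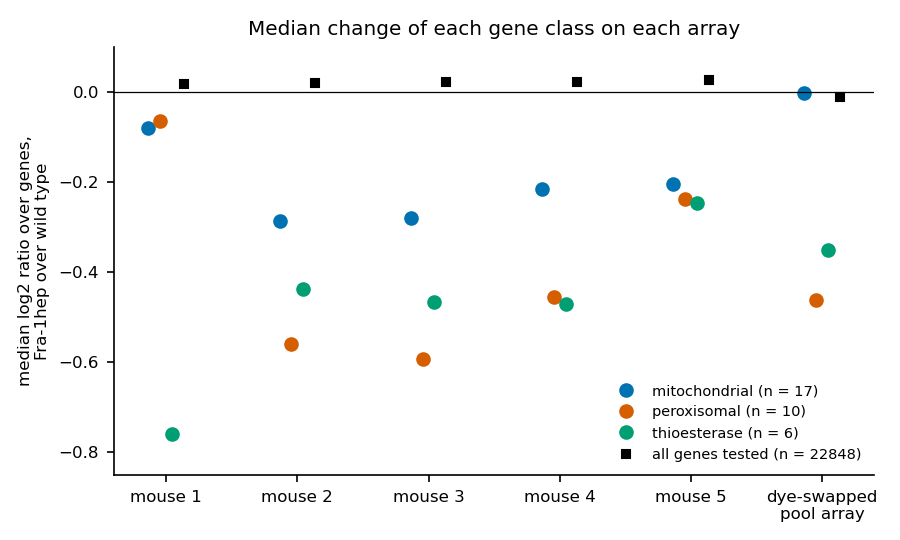
Median log2 ratio of Fra-1hep over wild type (y axis) of each class of members on each array (x axis), with the median of all 22848 genes tested as squares. The mitochondrial medians run from -0.29 to -0.0023 on the arrays, and the lowest thioesterase median is in mouse 1, at -0.76. With median centring in place of loess the mitochondrial median over arrays is 0.03 instead of -0.13.

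The carnitine shuttle carries long-chain acyl groups into mitochondria. Cpt1a, the outer-membrane carnitine palmitoyltransferase that sets the rate of entry, had log2 ratios of 0.07, 0.07, 0.12, -0.03 and -0.09 in mice 1 to 5 and of -0.05 on the dye-swapped array. Its processed signal had a lowest value of 8779, a median of 12387 and a highest of 14726 in the Fra-1hep channels, against 9227, 12059 and 13654 in the wild-type channels, and the ranges overlapped. The estimate was -0.02 (SE 0.06, n = 4, adjusted p = 0.892, 95% interval from -0.16 to 0.13), and it was 0.14 with median centring. A second Cpt1a probe read -0.19 to -0.37 in the mice and 0.23 on the dye-swapped array, for an estimate of -0.04. Cpt2, the inner-membrane palmitoyltransferase, was estimated at -0.02 and did not pass the test either. Slc25a20, the carnitine-acylcarnitine carrier of the inner membrane, fell by 0.32 on the log2 scale (SE 0.08, adjusted p = 0.0428), with -0.18 to -0.61 in the mice and -0.21 on the dye-swapped array. With median centring it was at -0.19 and did not pass the test (adjusted p = 0.148). Its call was also lost without mouse 4 (adjusted p = 0.0805), without mouse 5 (0.0737) and without mice 2 and 3 together (0.0816).

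The acyl-CoA dehydrogenases open each cycle and differ in the chain length they take. Acadl, for long chains, fell by 0.24 (SE 0.06, adjusted p = 0.0315), with -0.27 to -0.35 in the mice and -0.16 on the dye-swapped array. With median centring it was at -0.10 and did not pass the test (adjusted p = 0.382). That call was also lost without mouse 1 (adjusted p = 0.0528), without mouse 4 (0.0661) and without mice 2 and 3 together (0.0653). Acadm, the medium-chain enzyme, read -0.35, -0.31, -0.20, -0.22 and -0.52 in mice 1 to 5, but 0.10 on the dye-swapped array. Its processed signals of 12422 to 19992 in the Fra-1hep channels (median 16471), against 16414 to 22885 in the wild-type channels (median 19152), overlapped. All mice were below 0 and the array with exchanged dyes was above it, and the estimate of -0.12 (SE 0.07, adjusted p = 0.350) turned to 0.04 with median centring. Acads, for short chains, read -0.22 to -0.37 in the mice but 0.23 on the dye-swapped array, for an estimate of -0.04. Acadvl, for very long chains, was estimated at 0.04. With the mouse arrays alone Acadm was at -0.33 (adjusted p = 0.0087) and Acads at -0.30 (adjusted p = 0.0065), while Acadvl did not pass the test.

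In the later steps of the cycle no member passed the test when both dye orientations were fitted together. Hadha, the alpha subunit of the trifunctional protein, which hydrates and oxidises long-chain intermediates, had log2 ratios of -0.46, -0.48, -0.40, -0.24 and -0.40 in mice 1 to 5 and of 0.06 on the dye-swapped array. Its processed signals of 1257 to 1770 in the Fra-1hep channels (median 1575), against 1579 to 2335 in the wild-type channels (median 1990), overlapped. The estimate was -0.16 (SE 0.06, adjusted p = 0.154). The beta subunit Hadhb, encoded beside it on chromosome 5, had -0.16 to 0.01 in the mice and an estimate of -0.03. Hadh, the short-chain hydroxyacyl-CoA dehydrogenase, was at -0.12, the isomerase Eci1 at -0.20 and the reductase Decr1, needed for unsaturated chains, at -0.15. The electron transfer flavoprotein subunits Etfa and Etfb were at 0.09 and -0.19 and their oxidoreductase Etfdh at -0.14. In ketone body synthesis, the thiolase Acat1 was at -0.15 and the hydroxybutyrate dehydrogenase Bdh1 at -0.13. None of these 10 genes passed the test in the fit to all 6 arrays with loess normalisation. With median centring Etfa rose by 0.25 (adjusted p = 0.0473). With the mouse arrays alone Hadha was at -0.38 (adjusted p = 0.00314), and Hadh, Acat1, Decr1 and Bdh1 were past the threshold too, at -0.19 to -0.36. Of 2 further Bdh1 probes, 1 read -0.0042 to 0.24 in the mice and 1 read -0.27 to -0.42. A second Decr1 probe read 0.22 in mouse 1 and -0.12 to -0.28 in the other mice.

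The members were read in both dye orientations. Lower on all 5 mouse arrays were 10 of 17 mitochondrial and 5 of 10 peroxisomal members, against 17.4% of all genes tested. On the dye-swapped array 8 of the 17 mitochondrial members had a positive ratio, a share near the 47.7% of all genes tested. All 10 peroxisomal members had a negative ratio on that array, against 52.3% of all genes tested. When the mouse arrays were fitted alone, 9 of 17 mitochondrial members were lower. Of the 10 peroxisomal members, 5 were then lower and 1, Scp2, was higher. A dye effect and a difference between the pooled animals and the single mice cannot be told apart with 1 dye-swapped array.

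**Figure D3:**
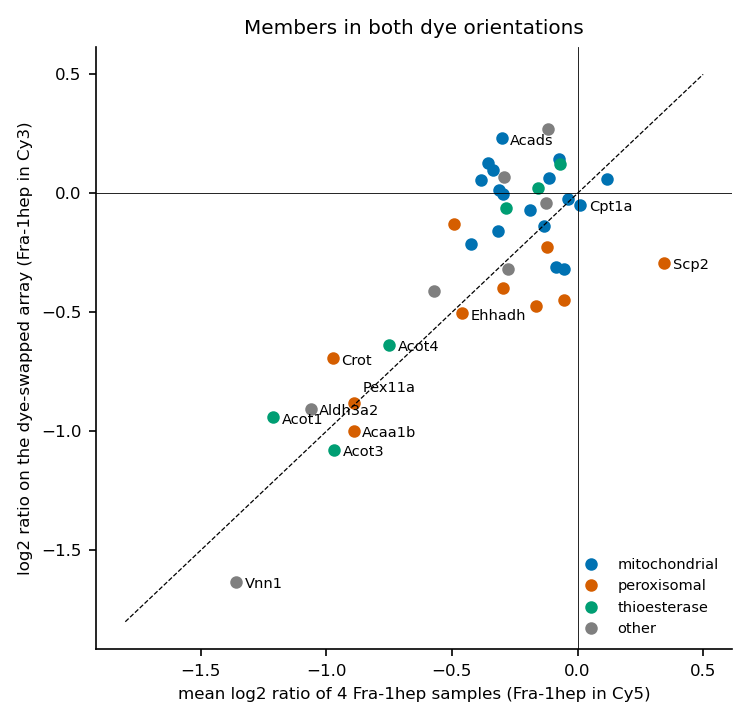
Log2 ratio of each member on the dye-swapped array (y axis, Fra-1hep in Cy3) against its mean over the 4 Fra-1hep samples (x axis, Fra-1hep in Cy5). The dashed line marks equal values, and colours give the class. Vnn1, Acot1, Acot3, Acot4, Aldh3a2, Acaa1b, Pex11a and Crot lie in the lower left near the line, while 8 of 17 mitochondrial members lie above 0 on the y axis, as do 47.7% of all genes tested.

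Among the peroxisomal members outside the oxidation steps, Crot, Pex11a and Pex19 fell. Crot, which turns medium-chain acyl-CoA into carnitine esters for export, had log2 ratios of -1.06, -1.19, -0.96, -0.74 and -1.02 in mice 1 to 5 and of -0.69 on the dye-swapped array. Processed signals of 5720 to 7691 in the Fra-1hep channels (median 6793), against 11204 to 14591 in the wild-type channels (median 12360), did not overlap. Crot was 1.78-fold lower (log2 -0.83, SE 0.08, adjusted p = 0.00089) and kept its call under every alternative tried. Pex11a, which promotes division of peroxisomes, read -0.48, -1.17, -1.16, -1.21 and -0.71 in the mice and -0.88 on the dye-swapped array. Its signals were 4887 to 8293 in the Fra-1hep channels (median 5853), against 8994 to 13777 in the wild-type channels (median 11271), without overlap. Mouse 1 was the least changed, and the gene was 1.85-fold lower (log2 -0.88, SE 0.14, adjusted p = 0.00649). Pex19, a chaperone for membrane proteins of the organelle, fell by 0.31 (SE 0.06, adjusted p = 0.0169), with -0.42 to -0.62 in the mice and -0.13 on the dye-swapped array, and with median centring it was at -0.17 and did not pass the test (adjusted p = 0.123). Abcd3, the acyl-CoA importer, was estimated at -0.35 (SE 0.14) with 0.16 in mouse 1 and -0.20 to -0.68 in the others, and did not pass the test (adjusted p = 0.153).

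The thiolases Acaa1a and Acaa1b, which cleave the shortened chain in the last step of the peroxisomal cycle, are paralogs encoded near each other on chromosome 9. Acaa1b had log2 ratios of -0.16, -1.19, -1.31, -1.42 and -0.73 in mice 1 to 5 and of -0.999 on the dye-swapped array. Its processed signals of 10201 to 21584 in the Fra-1hep channels (median 12664), against 24324 to 31521 in the wild-type channels (median 27054), did not overlap, and mouse 1 stood closest to wild type. The gene was 1.93-fold lower (log2 -0.95, SE 0.21, adjusted p = 0.0251), a call lost without mice 2 and 3 together (adjusted p = 0.0518). Acaa1a had an estimate of -0.25 (SE 0.10, adjusted p = 0.148), with 0.28 in mouse 1, -0.07 to -0.25 in the other mice and -0.45 on the dye-swapped array. Whether their probes share signal was not measured, and the difference between them was not tested.

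The promoters of this pair are printed because the paralogs share a region of the chromosome and 1 of the 2 passed the test. Each window holds 250 bases before and 50 bases from a transcript start in the RefSeq annotation of GRCm38.p6, 5′ to 3′ on the strand of the gene, with matches to AGGTCA or TGANTCA in capitals where there are any. Acaa1b lies at chr9:119157044-119157343 on the minus strand and Acaa1a at chr9:119341044-119341343 on the plus strand.
Acaa1b: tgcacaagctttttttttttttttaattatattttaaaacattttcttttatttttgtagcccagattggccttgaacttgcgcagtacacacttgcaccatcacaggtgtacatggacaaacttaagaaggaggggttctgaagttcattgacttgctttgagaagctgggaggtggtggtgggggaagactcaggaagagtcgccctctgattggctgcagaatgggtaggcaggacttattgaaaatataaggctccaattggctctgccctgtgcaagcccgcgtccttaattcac
Acaa1a: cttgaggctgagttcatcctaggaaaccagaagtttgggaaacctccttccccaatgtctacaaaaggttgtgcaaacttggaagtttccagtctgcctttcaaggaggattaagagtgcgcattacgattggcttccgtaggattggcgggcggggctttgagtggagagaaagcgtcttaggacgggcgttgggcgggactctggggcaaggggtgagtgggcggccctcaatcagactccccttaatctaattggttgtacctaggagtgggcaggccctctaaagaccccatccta
Neither window holds a match to AGGTCA, the core motif of many nuclear receptors, on either strand. Nor does either window hold TGANTCA, the AP-1 site with its middle base left free. The window of Acaa1a does not sit at the gene start of the RefSeq gene table.

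Ehhadh, the bifunctional enzyme that hydrates and oxidises acyl-CoA in peroxisomes, read -0.58, -0.49, -0.60, -0.57 and -0.14 in mice 1 to 5 and -0.50 on the dye-swapped array. Its signals of 3733 to 4956 in the Fra-1hep channels (median 4496), against 4884 to 6689 in the wild-type channels (median 6133), overlapped. Mouse 5 was the least changed, and Ehhadh was 1.40-fold lower (log2 -0.48, SE 0.09, adjusted p = 0.0159), a call narrowly lost with median centring, where it was at -0.33. Hsd17b4, which catalyses the same steps for branched chains, was at -0.32 (SE 0.09, adjusted p = 0.0643) and the peroxisomal reductase Decr2 at -0.17. Scp2, whose locus also encodes a thiolase for branched chains, read 0.15 to 0.63 in the mice but -0.29 on the dye-swapped array. A second Scp2 probe had an estimate of -0.06, against 0.03 for the brighter one, and neither direction held over the 6 arrays. The median of the 6 peroxisomal oxidation enzymes was 0.09 in mouse 1, and -0.05 to -0.47 in the other mice.

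Among the thioesterases, 3 genes of a cluster on chromosome 12 fell. Acot1, the cytosolic long-chain enzyme, had log2 ratios of -1.90, -1.58, -1.51, -0.54 and -0.86 in mice 1 to 5 and of -0.94 on the dye-swapped array. Its processed signals of 905 to 1934 in the Fra-1hep channels (median 1289), against 2638 to 3573 in the wild-type channels (median 3191), did not overlap. Mouse 1 had the lowest ratio and mouse 4 the highest, and Acot1 was 2.11-fold lower (log2 -1.08, SE 0.22, adjusted p = 0.0207). Acot3, a peroxisomal enzyme, read -1.63, -0.86, -0.75, -1.28 and -0.16 in the mice and -1.08 on the dye-swapped array. Its signals were 164 to 643 in the Fra-1hep channels (median 399.6), against 659 to 903 in the wild-type channels (median 756), close but without overlap. It was 2.03-fold lower (log2 -1.02, SE 0.23, adjusted p = 0.0272), a second probe had an estimate of -1.13, and the call was lost without mice 2 and 3 together (adjusted p = 0.0531). Acot4, which hydrolyses peroxisomal dicarboxylic acyl-CoA, read -1.25, -0.45, -0.41, -0.75 and -0.57 in mice 1 to 5 and -0.64 on the dye-swapped array. Its signals of 304 to 694.5 in the Fra-1hep channels (median 488), against 726 to 1040 in the wild-type channels (median 819), did not overlap. Acot4 was 1.62-fold lower (log2 -0.69, SE 0.14, adjusted p = 0.0172), with mouse 1 the most changed.

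The remaining thioesterases did not pass the test in the fit to all 6 arrays. Acot2, the mitochondrial member of the cluster, was estimated at -0.07 (SE 0.07, adjusted p = 0.592). Its processed signal was dim, with 22.1 to 34.0 in the Fra-1hep channels and 27.0 to 45.0 in the wild-type channels, and the background correction draws ratios of such probes towards 0. With the authors' processed signals it was at -0.29, again short of the threshold (adjusted p = 0.185). The peroxisomal Acot8 was at -0.17, and at -0.28 with the mouse arrays alone (adjusted p = 0.0365), and the cytosolic acetyl-CoA hydrolase Acot12 at 0.03. With the authors' processed signals Acot1, Acot3 and Acot4 kept ratios of -1.11, -1.18 and -0.75 but missed the threshold (adjusted p = 0.0801, 0.117 and 0.0978).

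The 4 thioesterase members of the cluster lie on chromosome 12 in the order Acot2, Acot1, Acot4, Acot3, all on the plus strand. Their promoters are shown because 3 of these neighbours fell together. Acot5, which is not a member and was named after its values were seen, lies beyond Acot3 on this chromosome. It fell too (log2 -0.46, limma, adjusted p = 0.00555). Whether probes of these paralogs share signal was not measured. The windows are as above, at chr12:83987611-83987910 for Acot2, chr12:84009252-84009551 for Acot1, chr12:84038129-84038428 for Acot4 and chr12:84051894-84052193 for Acot3. Capitals mark AGGTCA read on the minus strand (TGACCT) and TGANTCA, the AP-1 site with its middle base left free.
Acot2: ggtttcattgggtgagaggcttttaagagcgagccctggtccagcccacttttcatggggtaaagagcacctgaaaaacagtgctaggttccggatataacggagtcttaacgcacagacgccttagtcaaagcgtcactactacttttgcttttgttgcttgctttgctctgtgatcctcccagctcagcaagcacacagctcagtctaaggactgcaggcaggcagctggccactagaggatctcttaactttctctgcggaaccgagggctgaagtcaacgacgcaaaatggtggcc
Acot1: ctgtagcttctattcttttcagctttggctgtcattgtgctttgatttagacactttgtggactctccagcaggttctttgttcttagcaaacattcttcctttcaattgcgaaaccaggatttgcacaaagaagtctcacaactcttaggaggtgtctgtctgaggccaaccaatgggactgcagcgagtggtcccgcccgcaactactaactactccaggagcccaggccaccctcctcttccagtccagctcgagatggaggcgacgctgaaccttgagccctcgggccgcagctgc
Acot4: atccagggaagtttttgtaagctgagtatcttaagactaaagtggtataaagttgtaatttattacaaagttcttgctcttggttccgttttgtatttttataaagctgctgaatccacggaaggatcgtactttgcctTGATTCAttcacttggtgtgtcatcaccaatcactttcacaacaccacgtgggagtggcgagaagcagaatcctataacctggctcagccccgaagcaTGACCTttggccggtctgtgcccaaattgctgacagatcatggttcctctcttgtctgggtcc
Acot3: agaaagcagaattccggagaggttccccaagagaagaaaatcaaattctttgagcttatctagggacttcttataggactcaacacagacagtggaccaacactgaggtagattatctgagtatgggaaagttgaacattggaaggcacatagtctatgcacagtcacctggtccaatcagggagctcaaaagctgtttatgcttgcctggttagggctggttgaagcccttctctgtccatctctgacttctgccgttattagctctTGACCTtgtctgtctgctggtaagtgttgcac
Acot3 has TGACCT beginning at base 19 counted from the start, and Acot4 has TGACCT beginning 13 bases and TGATTCA beginning 111 bases before it, while Acot1 and Acot2 have no match. TGATTCA matches a pattern that takes any middle base and is looser than the AP-1 site itself, and binding to it was not tested. The Acot4 window does not sit at the gene start of the RefSeq gene table. Over all promoter windows of the table, 16.3% of 32851 hold AGGTCA and 7.81% hold TGANTCA on either strand. Among the 37 windows of the 34 members that have one, 8 hold AGGTCA (21.6%) and 3 hold TGANTCA (8.11%). The direct repeat of AGGTCA with 1 base between the copies, the arrangement that PPARα with RXR is known to bind, is in 13 of all windows (0.0396%) and in 0 of the 37. With the fourth base of each copy left free (AGGNCA) it is in 0.381% of all windows and again in 0 of the 37. These are letters in short windows and say nothing about binding outside them.

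Of the 7 other members, Vnn1, Aldh3a2 and Eci2 fell. Vnn1, a pantetheinase that releases the vitamin precursor of coenzyme A, had log2 ratios of -1.02, -1.81, -1.61, -1.42 and -1.28 in mice 1 to 5 and of -1.63 on the dye-swapped array. Its processed signals of 387 to 692 in the Fra-1hep channels (median 412), against 1139 to 1653 in the wild-type channels (median 1348), did not overlap. Vnn1 was 2.82-fold lower (log2 -1.50, SE 0.11, adjusted p = 0.000418). Aldh3a2, which oxidises long-chain fatty aldehydes, read -0.83, -1.33, -1.19, -1.08 and -1.07 in the mice and -0.91 on the dye-swapped array. Signals of 1063 to 1581 in the Fra-1hep channels (median 1252), against 2355 to 3394 in the wild-type channels (median 2813), were again apart, and the gene was 1.98-fold lower (log2 -0.98, SE 0.08, adjusted p = 0.000556). Eci2, an enoyl-CoA isomerase found in both organelles, fell by 0.49 (SE 0.07, adjusted p = 0.00485), with -0.41 to -0.78 in the mice. Vnn1, Aldh3a2, Eci2, Crot and Pex11a kept their calls in all 18 alternatives.

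**Figure D4:**
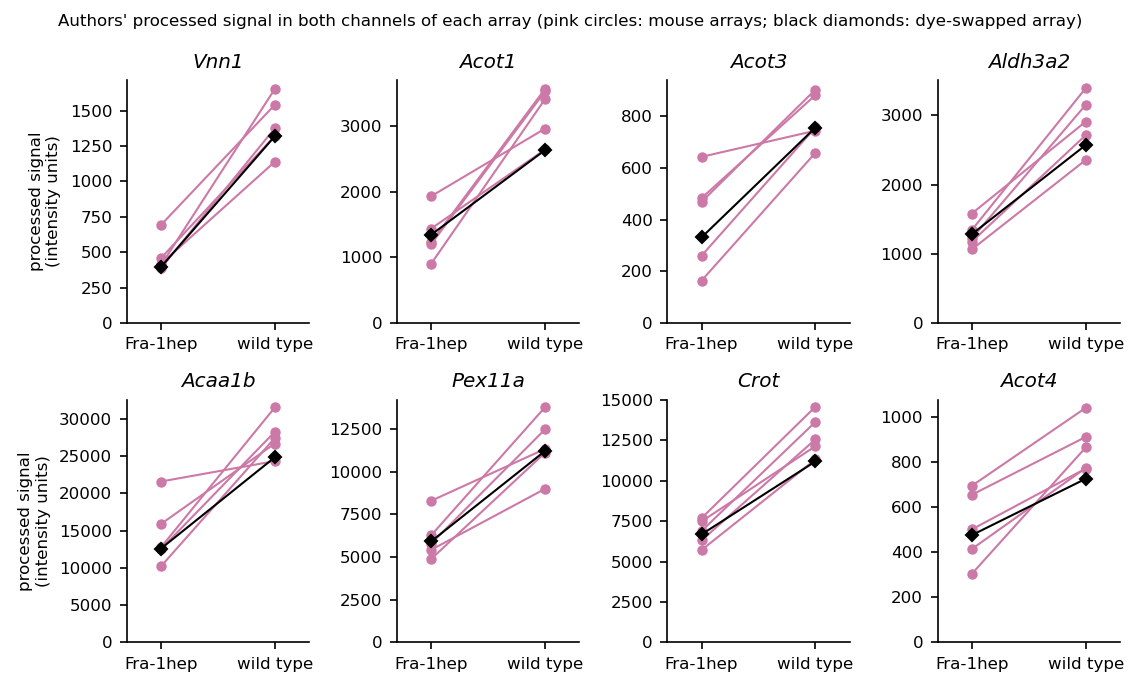
The authors' processed signal (y axis, linear intensity units, each panel with its own scale from 0) in the Fra-1hep and wild-type channels of the same array, joined by a line, for the 8 members that were at least 1.5-fold lower. Circles are the 5 mouse arrays and black diamonds the dye-swapped array. In each panel all Fra-1hep signals lie below all wild-type signals, the gap being narrowest for Acot3 (highest Fra-1hep 643, lowest wild type 659). The 8 were picked for their fall on these same arrays, so this separation is not independent evidence. Etfb and Acot8, which did not pass the test, had no overlap either.

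Of the other genes in this class, Acad11, an acyl-CoA dehydrogenase, was at -0.30 and missed the threshold (adjusted p = 0.0548). The carnitine acetyltransferase Crat was at -0.11 and the malonyl-CoA decarboxylase Mlycd at 0.08, neither past the test, but with the mouse arrays alone Acad11 (adjusted p = 0.0282) and Crat (adjusted p = 0.0189) were lower. Fgf21, a liver hormone induced in fasting, read -0.43, 0.54, 0.49, -0.47 and -0.12 in mice 1 to 5 and -0.04 on the dye-swapped array. Signals of 135 to 336 in the Fra-1hep channels (median 179), against 177 to 228 in the wild-type channels (median 207), overlapped, and mice 2 and 3 stood above the pool while the other mice stood below it. Its estimate was -0.08 (SE 0.17, adjusted p = 0.809, 95% interval from -0.48 to 0.31), so the data set wide bounds on it.

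A further 63 of 64 genes listed for the pathway and related routes were tested, Acot6 being too dim. Of these, 13 fell, 3 rose and 47 did not pass the test, with a median log2 ratio of -0.07, against 6.48% of all genes tested that fell and 5.95% that rose. In peroxisomes 7 of 32 fell and 2 rose, in mitochondria 3 of 20 fell and 0 rose, and among acyl-CoA synthetases and transporters 3 of 11 fell and 1 rose. The median log2 ratios of these lists were -0.11, -0.08 and -0.01, in that order. The mitochondrial list is broader than the mitochondrial members, as it also holds genes such as Ivd, Pcca, Mmut and Oxct1. Its values are therefore not a like comparison with those members. With median centring the 63 genes gave 5 lower and 8 higher, against 3.61% lower and 2446 of 22848 higher among all genes tested, so the higher share lay near that of all genes. With the authors' processed signals they gave 3 lower and 1 higher, against 3.39% lower and 3.23% higher.

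The acyl-CoA synthetases moved in opposite directions. Acsl1, a main long-chain synthetase of liver, fell by 0.62 (SE 0.11, adjusted p = 0.0129) and Acsl5 by 0.67 (SE 0.12, adjusted p = 0.0136), each lower on 6 of 6 arrays. Acsl4, which prefers arachidonate, rose by 0.90 (SE 0.12, adjusted p = 0.00309) and was higher on 6 of 6 arrays. Among peroxisomal genes Acox3, a branched-chain oxidase, rose by 0.63 (SE 0.12, adjusted p = 0.0129). Acox2, the oxidase of bile acid intermediates, named after its values were seen as the only other gene of this list that rose, was at 0.31 (adjusted p = 0.0374). Nudt7, a peroxisomal coenzyme A diphosphatase, fell by 0.53 (adjusted p = 0.0336). The very long-chain importer Abcd2 fell by 0.51 (adjusted p = 0.0309) but its Fra-1hep signal rose above background on 1 of 6 arrays. The mitochondrial thiolase Acaa2 read -0.01 to 0.58 in the mice and -0.61 on the dye-swapped array, for an estimate of -0.15 (adjusted p = 0.394).

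Of 11 regulators of the pathway tested at the transcript level, 1 fell (9.09%) and 0 rose. Among all genes tested 6.48% fell and 5.95% rose, so the share of regulators that fell lay near that of all genes. Ppara was at -0.16 (SE 0.09, adjusted p = 0.287) and its coactivator Ppargc1a at 0.10 (SE 0.06, adjusted p = 0.372), the second with 0.18 to 0.47 in the mice and -0.18 on the dye-swapped array. Acacb, which makes the malonyl-CoA that inhibits Cpt1a, read -0.95, -1.47, -1.41, -1.91 and 0.39 in mice 1 to 5 and -0.68 on the dye-swapped array. Mouse 5 stood apart from the rest, and the estimate of -0.83 (SE 0.35) did not pass the test (adjusted p = 0.181). The regulator that fell was Nr1i3, the nuclear receptor CAR, at -0.65 (SE 0.12, adjusted p = 0.0154), named after its values were seen.

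Cell type markers were read on the same scale, on which 6.48% of all genes tested fell and 5.95% rose. Of 11 hepatocyte markers 2 fell and 3 rose, and the list's median ran from 0.32 to 0.57 in the mice and was 0.0035 on the dye-swapped array. Neutrophil markers rose in 8 of 9, with a median of 2.39 and array medians of 1.21 to 3.16. Macrophage markers fell in 10 of 11 (median -0.58, arrays -0.42 to -0.86), endothelial markers in 6 of 8 (-0.44, arrays -0.21 to -0.68), T and NK cell markers in 6 of 8 (-0.33, arrays -0.18 to -0.33) and stellate cell markers in 1 of 7, with 1 higher. Cholangiocyte markers rose in 3 of 6 (median 0.31), and of 2 red blood cell markers 1 fell. Of 8 adipocyte markers 5, among them Adipoq, Lep and Plin1, were too dim to test, as were all 4 skeletal muscle markers. Cfd and Cidea fell, but their Fra-1hep signal was above background on only 0 and 1 of 6 arrays. Lipe was at -0.11 and did not pass the test. The part of these cell types in the values of the members was not tested.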

How the data were processed

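Liver RNA of 5 Fra-1hep mice and of a Fra-1hep pool was compared with a wild-type pool on 6 two-colour Agilent arrays, from 100 ng of RNA with an integrity score above 7.8, per the labels. Images were read by Agilent Feature Extraction, version 10.7.3.1 per the file headers and 10.7 per the submitters' processing notes. The authors' deposited scanner files give median spot and background signals and a processed signal as intensity. They give the log10 ratio of processed signals, per the file headers, and a series table deposited by the authors has log2 ratios with the dye-swapped array turned.

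From the median signals, background was corrected with normexp (offset 50) and ratios were normalised by loess within arrays, with control spots and outlier-marked spots (190 to 301 per array) at weight 0, in limma 3.58.1 (R 4.3.3, data.table package version 1.17.8). Saturated spots numbered 0. Of 55681 probes, 26056 received 1 symbol through their accession from the RefSeq list of GRCm38.p6, which served for names and promoters only because the arrays were designed on an earlier build. Tested genes had a probe above background for Fra-1hep on 3 or more of the 5 mouse arrays, or for wild type on 3 or more of 6. The model (lmFit and eBayes in limma) described the log2 ratio by genotype and a dye constant (3 residual and 4.62 prior degrees of freedom), two-sided, with Benjamini-Hochberg adjustment over 22848 genes, and was tested on simulated data. Of the 49 member probes all were tested, and 32 members rest on a single probe. The labels give single mice but no litter or batch, and the p-values measure only the spread between these samples, and the number of arrays limits the precision.

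The members, gene lists and alternatives were chosen with earlier results of these data known. Named on every array were members past the test with at least a 1.5-fold change, and Cpt1a, Acadm, Hadha, Ehhadh, Acaa1b, Acot1, Fgf21 and Vnn1 in any case. Of further pathway genes, Acsl1, Acaa2 and the 6 largest changes past the threshold were named, with some genes of the list not reported here, and of the regulators Ppara, Ppargc1a and Acacb. The alternatives were the authors' processed signals and series table, median centring, another offset (16), other filters on dim probes, the mean over probes, 5 separate mouse arrays, no dye term, the slide as a block, another variance model, and leaving out each mouse. RefSeq promoter windows were searched on both strands.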

Additional observations from a re-analysis of the deposited data

Results flagged for a closer look

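Over the 4 Fra-1hep samples, 1 sample lay far from the other 3 for 3 of the 40 members, while chance flags about 1 gene in 20. Ehhadh was at -0.14 in mouse 5 and between -0.58 and -0.55 in the others, so this mouse was the closest to wild type for the peroxisomal bifunctional enzyme. Crot was at -0.74 in mouse 4 and between -1.07 and -1.02 in the others, below wild type in each. Etfdh, the oxidoreductase that passes electrons to the respiratory chain, was at -0.28 in the average of mice 2 and 3 and between -0.10 and -0.08 in the others.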

How the results depend on the processing

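Of the 13 members that fell, none changed direction under any of the 18 alternatives, and Vnn1, Aldh3a2, Crot, Pex11a and Eci2 stayed past the threshold in all of them. Slc25a20 lost its call in 8, Acadl in 7, Pex19 in 4, Acaa1b, Acot3 and Ehhadh in 3 each, and Acot1 and Acot4 in 2 each. With the authors' processed signals, 5 members were lower (0 mitochondrial, 2 peroxisomal, 0 thioesterases), as were 3 further pathway genes (1 higher) and 774 of all genes (738 higher). The authors' series table gave the same 5, 0, 2, 0, 3 and 1, with 791 lower and 755 higher of all genes. When loess was replaced by median centring, 74.8% of the genes called were higher (2446 higher, 825 lower), against 47.9% with loess, and the median of all genes was 0.08 instead of 0.01. Under it the mitochondrial median turned to 0.034, with 0 lower and 1 higher (Etfa), 3 peroxisomal members were lower, the median of the 7 other members was -0.13, and further pathway genes gave 5 lower and 8 higher. It also turned the sign of 10 members that had not passed the test. Offset 16 left 0 mitochondrial members lower, and the trended, robust variance model left 1. The mouse arrays alone gave 23 members lower, 9 of them mitochondrial, and 1 higher (Scp2, peroxisomal), with 8 further pathway genes higher and 2630 lower and 3449 higher of all genes. With all arrays turned and no dye term, 4 mitochondrial members were lower, 6 further pathway genes higher, and 2300 lower and 2471 higher of all genes. Leaving out mice gave 9 to 15 members lower, with 9 without mice 2 and 3 together, 0 to 2 mitochondrial, 4 to 7 peroxisomal and 2 to 3 thioesterases. The mitochondrial count was 0 without mouse 4 and without mice 2 and 3 together, and 1 without mouse 1 and without mouse 5. The cause of these shifts was not tested. With the slide as a random block the within-slide correlation was -0.02 and 15 members were lower. No paired analysis was possible because every array shares the same wild-type pool and the labels pair no samples. Signal over background limits Acot2 and Crat most, whose ratios the offset draws towards 0, and the 1 dye-swapped array limits every estimate.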

Other observations

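Acaca, the cytosolic partner of Acacb in malonyl-CoA synthesis, was at -0.26, -0.48, -0.57, -0.67 and 0.67 in mice 1 to 5 and at -0.28 on the dye-swapped array. Acacb was also above the wild-type pool in mouse 5 alone among the mice (0.39). Neither gene passed the test (limma, adjusted p = 0.539 for Acaca and 0.181 for Acacb), and both were named after their values were seen.

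Acot5, a peroxisomal thioesterase outside the 40 members that is encoded beyond Acot3 on chromosome 12, fell by 0.46 on the log2 scale (limma, adjusted p = 0.00555). It was lower on 6 of 6 arrays. Ech1, the dienoyl-CoA isomerase of peroxisomes and mitochondria, fell by 0.45 (adjusted p = 0.00884), with the dye-swapped array at -0.23 and the mice at -0.49 to -0.87. Among peroxisome assembly factors, Pex3, Pex16 and Pex26 fell by 0.31, 0.32 and 0.34, while Pex14 was at -0.19 and did not pass the test (adjusted p = 0.0594). These genes were named after their values were seen.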
